A study of Mus musculus with 4 samples.

Results

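The cytosolic ribosomal protein genes were examined as a housekeeping family in the open chromatin of mouse brain macrophages. Members were the protein-coding genes whose symbol is Rpl or Rps, a number and at most 1 further letter, which left out the Rps6 kinases and every symbol with -ps. The rule found 77 genes, 47 of the large subunit (Rpl) and 30 of the small subunit (Rps), among 21900 protein-coding genes with a position. Their peaks were the merged peaks whose centre lay inside a member, or for which a member was the nearest protein-coding gene within 100 kb, which gave 145 of 74695 peaks. The accessible regions came from ATAC-seq, in which the Tn5 transposase cuts and tags open chromatin, on sorted brain parenchymal macrophages. There were 4 libraries in 2 groups of 2, named MDM (monocyte-derived macrophages, from the series title) and YSM, which the labels do not spell out. Both groups carried the genotype label Ms4a3-Ai9 and the treatment label DR-3x. Ai9 is a red fluorescent reporter switched on by Cre recombinase, and Ms4a3 is active in progenitors of monocytes and granulocytes. The labels do not explain DR-3x, how the groups were gated, or which animals were pooled or kept apart. The files hold intervals without a value per library, so no value below has a replicate error and the depth of each library is unknown.

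Cytosolic ribosomal proteins assemble with ribosomal RNA into the small subunit, which decodes the messenger RNA, and the large subunit, which joins amino acids. Every dividing or secreting cell needs them in near-equal amounts, and their genes are classed as housekeeping genes with promoters that are open in most cell types. Many of their transcripts begin with a C followed by a run of pyrimidines, the 5′ terminal oligopyrimidine (TOP) element, through which mTOR signalling adjusts their translation. Processed copies of these genes are common in the mouse genome, and a few copies or paralogues are known for expression in the testis or in muscle.

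The start of a ribosomal protein gene is where its TOP element would lie, so the 5 longest pyrimidine runs near an annotated start are shown. RefSeq promoter windows (GRCm38.p6, the same primary sequence as mm10) were matched for 58 of the 77 genes, with 70 windows because 10 genes had several annotated starts. Each line gives 30 bases, 15 on each side of the boundary before the start base, read 5′ to 3′, with the part of the longest unbroken run of C and T that falls within them in capitals.
Rpl7a, chr2:26910792-26910821, plus strand: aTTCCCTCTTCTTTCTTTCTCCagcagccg
Rpl27a, chr7:109519180-109519209, plus strand: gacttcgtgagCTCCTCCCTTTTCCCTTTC
Rpl34, chr3:130730323-130730352, minus strand: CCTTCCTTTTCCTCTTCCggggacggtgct
Rpl35, chr2:39005117-39005146, minus strand: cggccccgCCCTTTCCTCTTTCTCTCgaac
Rpl15, chr14:18270972-18271001, minus strand: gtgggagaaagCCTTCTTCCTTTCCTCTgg

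A run of at least 8 pyrimidines within 20 bases of the start stood in 30 of the 70 windows (42.9%). The same held for 15.8% of the 21263 windows of all protein-coding genes. It held for 17.3% of the windows of mitochondrial ribosomal protein genes and for 15.9% of those of proteasome subunit genes. Among the windows of translation initiation and elongation factor genes it held for 21.4%. The median longest run was 7 bases in cytosolic ribosomal protein genes and 5 bases in all protein-coding genes. Rpl7a, which encodes a large-subunit protein, had the longest run, at 21 bases. Such runs stood in 20 of the 45 windows whose start lay inside a merged peak and in 10 of the other 25. These counts describe sequence only, and no test of the differences was made. The run measure was chosen after these values or sequences had been seen.

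Short motifs were then searched on both strands of the full 300-base windows, from 250 bases before to 50 bases from the start on, and matches of different motifs may overlap. The ETS core CCGGAAG, the kind of site that GABP binds, stood in 24 of 70 windows (34.3%), against 11.6% of all protein-coding windows. It stood in 34.7% of the mitochondrial ribosomal protein, 34.1% of the proteasome and 28.6% of the translation factor windows. Among windows whose start lay inside a merged peak, the ETS core stood in 35.6% of the family's and 20.4% of all protein-coding windows. The YY1 core AANATGGC stood in 21.4% of the family's windows and 6.37% of all. The mitochondrial ribosomal protein, proteasome and translation factor windows held it in 28%, 13.6% and 17.1%. With the start in a peak, it stood in 20% of the family's windows and 8.83% of all. The SP1 box GGGCGG stood in 55.7%, against 46.2% of all, but with the start in a peak the order turned, at 53.3% against 68.5%. Translation factor windows held it in 70%. The TATA box TATAAA stood in 8.57%, against 12.6% of all, and with the start in a peak in 6.67%, against 6.10%. The box CCAAT stood in 28.6%, against 38.2%, and with the start in a peak in 24.4%, against 37.9%. Mitochondrial ribosomal protein, proteasome and translation factor windows held it in 40%, 31.8% and 28.6%. The remaining cores were NRF1 GCATGCGC (4.29% against 3.52%), the cyclic AMP element TGACGTCA (7.14% against 2.23%) and the E-box CACGTG (11.4% against 7.84%). With the start in a peak, the order turned for NRF1, at 4.44% against 6.21%. The cyclic AMP element then stood at 6.67% against 3.995%, and the E-box at 13.3% against 10.9%. In mitochondrial ribosomal protein, proteasome and translation factor windows, NRF1 stood at 10.7%, 6.82% and 7.14%. The E-box there stood at 9.33%, 9.09% and 24.3%, and the cyclic AMP element at 2.67%, 0% and 1.43%.

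The palindrome CTCGCGAG stood in 8 of the 70 windows (11.4%), which belonged to 7 genes. The palindrome was among the motifs chosen after these values or sequences had been seen, so its share in the family is not independent evidence. With the start in a peak it stood in 4 of 45 of the family's windows and 155 of 7033 of all. It was found in 1.24% of all protein-coding windows, 2.67% of mitochondrial ribosomal protein windows, 2.27% of proteasome windows and 0% of translation factor windows. The 7 genes were Rpl10a, Rpl12, Rpl26, Rpl27a, Rps6, Rps19 and Rps28, and in 4 of them, Rpl12, Rpl26, Rps6 and Rps28, a start lay inside a merged peak. The 100 bases before the start are shown for 4 of them, with whole copies of the palindrome in capitals. Rps19 has a further copy that crosses the start, so it is cut at the end of the printed stretch and left in small letters. Rps6 is the ribosomal target of S6 kinase and Rps19 is the gene most often mutated in Diamond-Blackfan anaemia.
Rps6, chr4:86857368-86857467, minus strand: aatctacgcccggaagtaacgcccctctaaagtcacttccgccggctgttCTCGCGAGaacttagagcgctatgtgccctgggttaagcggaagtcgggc
Rpl26, chr11:68901466-68901565, plus strand: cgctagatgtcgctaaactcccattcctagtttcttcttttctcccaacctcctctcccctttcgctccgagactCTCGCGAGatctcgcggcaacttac
Rpl27a, chr7:109519095-109519194, plus strand: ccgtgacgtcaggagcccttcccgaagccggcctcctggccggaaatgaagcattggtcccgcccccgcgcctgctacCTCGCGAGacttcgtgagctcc
Rps19, chr7:24884492-24884591, plus strand: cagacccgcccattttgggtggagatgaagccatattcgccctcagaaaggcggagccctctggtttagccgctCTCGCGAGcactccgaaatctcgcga

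**Figure D1:**
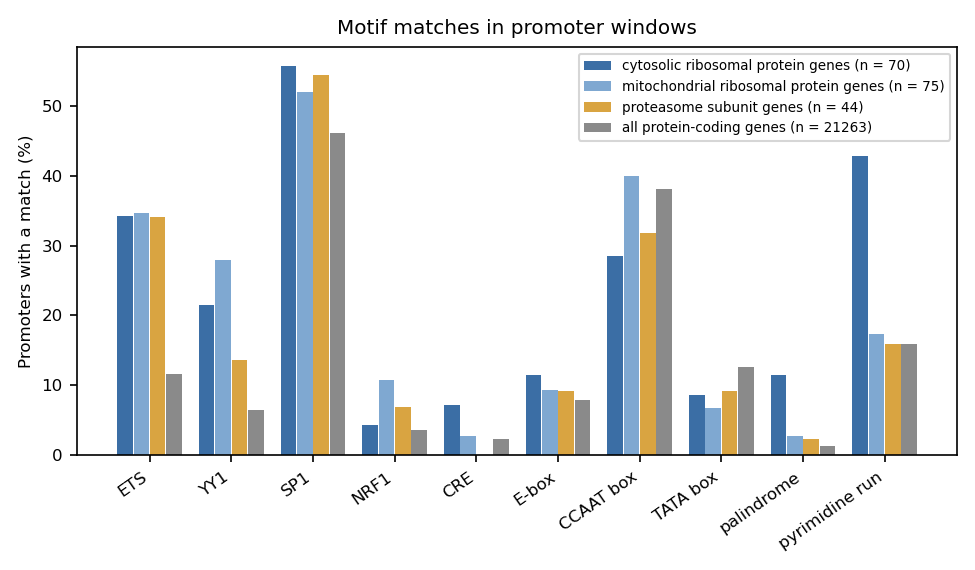
Share of 300-base promoter windows (vertical axis, percent) that hold each motif (horizontal axis), for 4 gene sets in bars of different colour; the pyrimidine run counts runs of at least 8 within 20 bases of the start. The cytosolic ribosomal protein bar stands at 42.9% for the pyrimidine run and at 11.4% for the palindrome, above the other 3 sets. Translation factor windows, not drawn, held the run in 21.4% and the palindrome in 0%. For ETS it stands at 34.3%, beside 34.7% and 34.1%. The motifs and the run measure were chosen after these values or sequences had been seen.

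Nearly every ribosomal protein gene had open chromatin at an end of the gene. A merged peak was centred within 1000 bp of the start or end in 71 of 77 genes (92.2%, 95% Wilson interval 84.0 to 96.4%), 28 of 30 in the small subunit and 43 of 47 in the large. Intervals here cover counting error over genes only. Across all protein-coding genes the share was 56.7% (12427 of 21900). It was 44.2% over the 8810 protein-coding genes of at most 11774 bp, the length of the longest member. Members were short, with a median of 3164 bp against 17146 bp. Other housekeeping sets had like shares, with 94.9% of 78 mitochondrial ribosomal protein genes, 89.8% of 49 proteasome subunit genes and 93.0% of 71 translation initiation and elongation factor genes. The intervals of these sets overlapped that of the ribosomal protein genes (87.5 to 98.0%, 78.2 to 95.6% and 84.6 to 97.0%), and the differences were not tested.

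**Figure D2:**
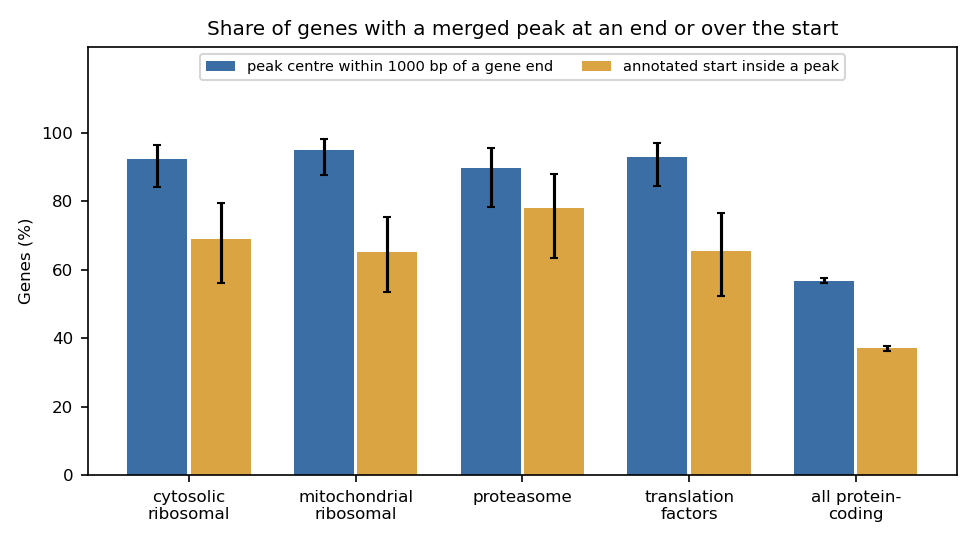
Percent of genes (vertical axis) with a merged peak centre within 1000 bp of either gene end (blue) or with an annotated start inside a merged peak (yellow), in 5 gene sets; error bars are 95% Wilson intervals. Cytosolic ribosomal protein genes stand at 92.2% and 69.0%, all protein-coding genes at 56.7% and 37.0%. The other housekeeping sets stand at 89.8 to 94.9% and at 65.2 to 78.0%.

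Each merged peak carries the number of library-level peaks, or subpeaks, joined in it. A number of 3 or fewer means that some library lacked a peak call there, whereas 4 or more can cover every library but need not. In all 71 genes with a gene-edge peak the peak with most subpeaks joined at least 4. Of these, 53 joined exactly 4 and 18 joined more. The median width of this peak was 241 bp, from 201 to 861 bp. Over all protein-coding genes 12427 had a gene-edge peak, and in 11264 of these such a peak joined at least 4 subpeaks. The counts were 73 of 74 for mitochondrial ribosomal protein, 44 of 44 for proteasome and 65 of 66 for translation factor genes. As a share of all genes, with or without a gene-edge peak, it was 92.2% in the family and 51.4% over all protein-coding genes.

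Rpl4, a protein of the peptide exit tunnel, had the widest and most composite peak of the family. It spanned chr9:64172806-64173666 (mm10), 861 bp with 10 subpeaks, and covered the annotated start at 64173387. By the nearest-gene rule it was assigned to Zwilch and not to Rpl4. Rpl7 had 8 subpeaks in 562 bp (chr1:16104741-16105302), Rpl32 8 in 497 bp (chr6:115808526-115809022) and Rps26, a protein at the messenger RNA exit of the small subunit, 8 in 353 bp (chr10:128626496-128626848). Rpl34 followed with 7 subpeaks in 416 bp, and Rps18 had 6 in 487 bp. Rpl21, Rpl35 and Rpl8 had 6 each, in 246, 400 and 343 bp. Rps15a (425 bp, 5 subpeaks) and Rpl22 (410 bp, 4) were also among the widest. Such peaks can lie at either gene end. The Rpl22 peak lay near the higher end of this plus-strand gene, and a separate peak of 263 bp with 4 subpeaks covered a start. The narrowest, at Rpl28 and Rps15, were 201 bp wide with 4 subpeaks. This is the width of a single subpeak, so that the joined calls covered the same bases.

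**Figure D3:**
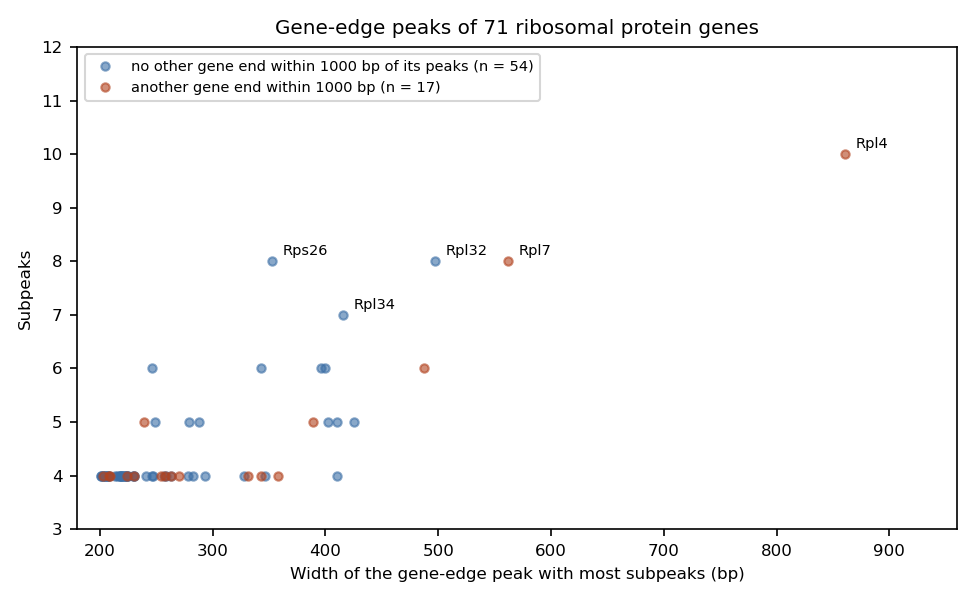
Width in bp (horizontal axis) against subpeak number (vertical axis) of the gene-edge peak with most subpeaks, 1 point per gene for 71 ribosomal protein genes; red points are the 17 genes with another protein-coding gene end within 1000 bp of a gene-edge peak. Most points lie at 4 subpeaks below 300 bp, and Rpl4 stands apart at 861 bp and 10 subpeaks.

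A second gene end lay within 1000 bp of the gene-edge peaks of 17 of the 71 genes (23.9%), so the open region at those genes can belong to either gene. The same share was not counted over all protein-coding genes, so 23.9% has no background beside it. At Rpl18, which is not among the 17, a gene-edge peak also lay inside Sphk2, whose ends were farther away. Rpl4, Rpl7a, Rpl15, Rps18, Rps25 and Rpl3l had a gene-edge peak but no assigned peak, because another gene was nearer or held the centre. The neighbours were Med22 at Rpl7a, Nkiras1 at Rpl15, Vps52 and B3galt4 at Rps18, Trappc4 at Rps25 and Msrb1 at Rpl3l. Counts of assigned peaks therefore understate the open ends of this family.

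At the annotated start itself, 40 of the 58 genes in the promoter table (69.0%, 56.2 to 79.4%) had the start base inside a merged peak. The share was 37.0% over all protein-coding genes with a window (6475 of 17492), and 25.6% over those no longer than the longest ribosomal protein gene. Other housekeeping sets had like shares, with 65.2% of mitochondrial ribosomal protein, 78.0% of proteasome and 65.5% of translation factor genes. Within 500 bp of a start, a peak centre was found for 54 of the 58 (93.1%), against 56.2% of all. For mitochondrial ribosomal protein, proteasome and translation factor genes it was 98.6%, 95.1% and 96.4%. In the family the counts at 100, 250 and 1000 bp were 33, 52 and 54. Each of the 54 peaks joined at least 4 subpeaks. The 4 genes without such a peak were Rpl3l, Rpl10l, Rpl32l and Rpl39l.

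The 54 peaks lay on both sides of the start. The centre was upstream for 30 and downstream for 24, with a median of -38.8 bp and extremes of -367 bp at Rps19 and 173 bp at Rpl24. The median was -39 bp in mitochondrial ribosomal protein, -35.5 bp in proteasome and -34.5 bp in translation factor genes, and -4.25 bp over all. In 14 of the 54 ribosomal protein genes the peak did not reach the start base, 12 of them with the peak upstream. The median gap was 60 bp. Peaks that covered the start had a median width of 263 bp and the others 222 bp. The widths of these peaks, and starts whose annotation differs from the one used in these cells, both bear on whether a start is counted as covered. The annotated starts were not checked against RNA.

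**Figure D4:**
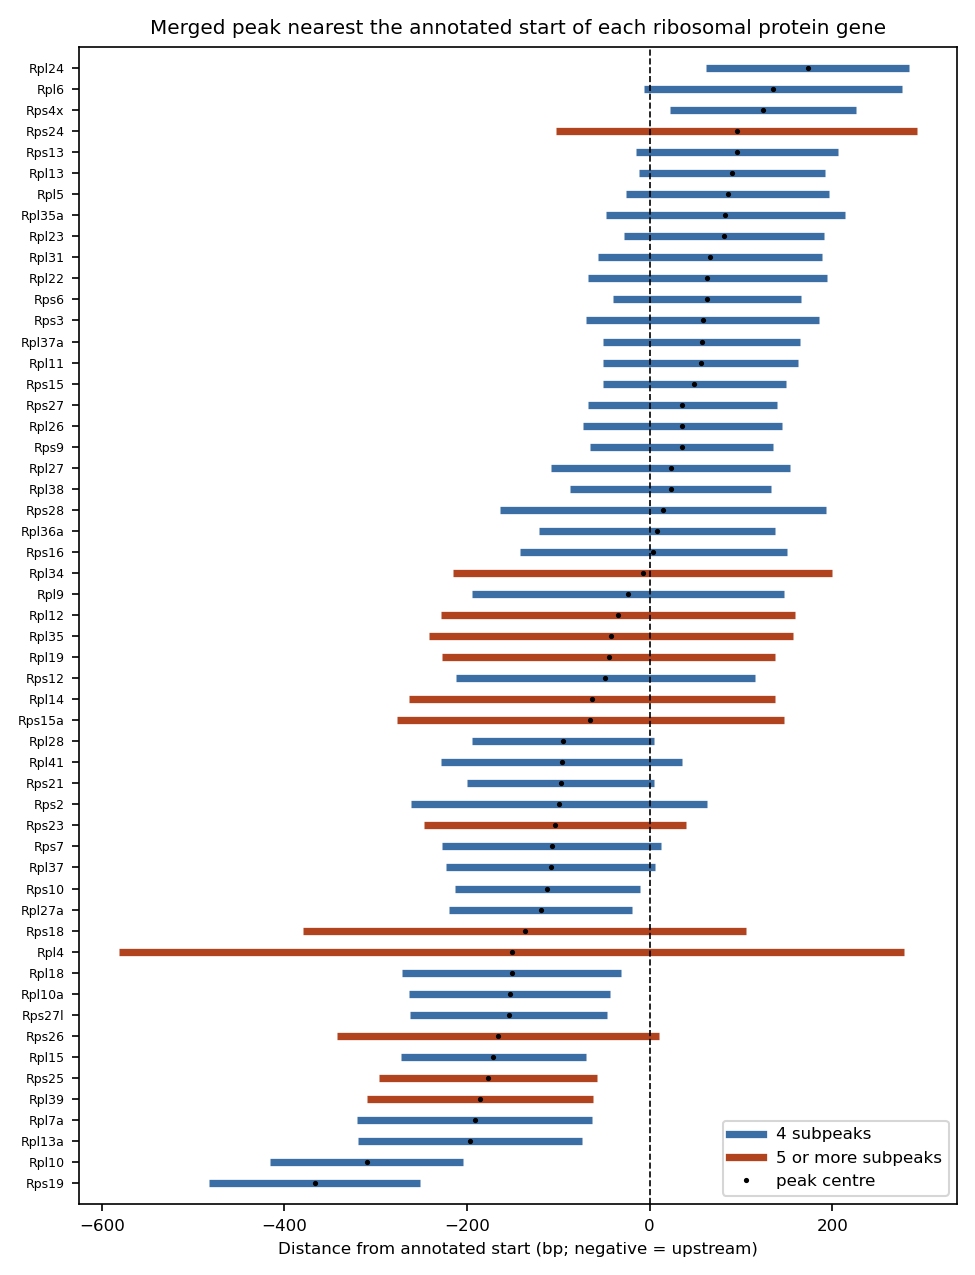
Extent of the merged peak nearest the annotated start (horizontal bars, bp from the start, negative upstream) for the 54 ribosomal protein genes with a peak centre within 500 bp; dots are peak centres, blue bars have 4 subpeaks and red bars 5 or more. Bars cross the dashed start line in 40 genes, and Rpl10 and Rps19 lie farthest upstream.

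By role, the counts stand beside the family's own share of 92.2%, and none of the following groups is set apart by them. A gene-edge peak was found for 20 of 20 genes of Diamond-Blackfan anaemia, an inherited failure of red cell production, among them Rps19, Rpl5 and Rpl11. It was found for 6 of 6 proteins that bind MDM2 when free of the ribosome and so tie ribosome assembly to p53 (Rpl5, Rpl11, Rpl23, Rpl26, Rps3 and Rps7). For the proteins of the exit tunnel and its rim it was 7 of 8, without Rpl17, and for those of the decoding site and messenger RNA path 7 of 8, without Rps2. Rps6 had a peak of 207 bp with 4 subpeaks over its start. Rpl13a, which joins the GAIT complex that restrains translation after interferon gamma, had its peak centre at -196.5 bp, upstream of the annotated start. The 4 X-linked members, Rpl10, Rpl36a, Rpl39 and Rps4x, all had a gene-edge peak of 4 or 5 subpeaks. An annotated start lay inside a peak in 1 of these 4, Rpl36a, beside 69.0% in the family, and 4 genes are few. The small groups share members, and their counts are not separate evidence.

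The 6 genes without a gene-edge peak fell into separate situations. Rps2, Rpl17 and Rps27l, a paralogue of Rps27 that p53 induces, each held a peak inside the annotated gene, more than 1000 bp from its ends. The Rps2 peak (chr17:24719802-24720126, 325 bp, 4 subpeaks) covered the annotated start, and the Rpl17 peak had 6 subpeaks in 407 bp. The Rps27l peak (chr9:66945824-66946039, 216 bp, 4 subpeaks) was centred at -154.5 bp from its nearer start. The gene intervals of Rps2 and Rps27l begin well before these starts, and Rpl17 had no promoter window. With gene ends widened to 2000 bp, 74 of the 77 genes had a peak, and Rpl10l, Rpl32l and Rpl39l did not.

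Rpl10l, Rpl39l and Rpl3l are paralogues known from testis or striated muscle. Rpl10l, an intronless copy of the X-linked Rpl10 that acts in male germ cells, had its nearest merged peak at chr12:65172654-65172880, 1110612 bp away. The nearest peak to Rpl39l, a testis paralogue of Rpl39, lay 18034.5 bp away with 3 subpeaks, was assigned to Atf7ip2 and was YSM-listed. The nearest to Rpl32l lay 10700 bp away with 1 subpeak and was assigned to Map7. Rpl3l, the heart and skeletal muscle paralogue of Rpl3, had no peak within 500 bp of either start. The peak 392.5 bp beyond its higher end (chr17:24736401-24736670, 270 bp, 4 subpeaks) was assigned to Msrb1. Rpl32l was placed beside them after its values were seen. The genes these 4 are named after all had a gene-edge peak, with 4 subpeaks at Rpl3 (229 bp) and Rpl10 (213 bp), 5 at Rpl39 (249 bp) and 8 at Rpl32 (497 bp). For these paralogues an absent peak says that none of the 4 libraries had a called peak, which a region that short reads cannot map uniquely would also give, and mappability was not tested.

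The windows before the start show how these genes differ in CpG dinucleotides, which are dense in housekeeping promoters. In the following 100 bases before the start, CG is in capitals.
Rpl10, chrX:74270716-74270815, plus strand: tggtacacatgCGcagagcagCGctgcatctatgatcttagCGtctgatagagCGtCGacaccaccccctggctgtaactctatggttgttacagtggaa
Rpl10l, chr12:66284402-66284501, minus strand: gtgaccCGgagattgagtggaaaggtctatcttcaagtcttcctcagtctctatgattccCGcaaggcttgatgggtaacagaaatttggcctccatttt
Rpl39, chrX:37085223-37085322, minus strand: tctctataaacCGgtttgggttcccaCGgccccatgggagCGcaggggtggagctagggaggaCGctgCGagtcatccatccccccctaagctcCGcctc
Rpl39l, chr16:10170128-10170227, plus strand: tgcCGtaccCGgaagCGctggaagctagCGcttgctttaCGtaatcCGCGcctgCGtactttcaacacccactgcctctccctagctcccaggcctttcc
Rpl3l, chr17:24727726-24727825, plus strand: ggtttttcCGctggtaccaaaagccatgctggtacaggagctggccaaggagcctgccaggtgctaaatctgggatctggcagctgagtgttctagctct
Rpl32l, chr10:20208339-20208438, plus strand: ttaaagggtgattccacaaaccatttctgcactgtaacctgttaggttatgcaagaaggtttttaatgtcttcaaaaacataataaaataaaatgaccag

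Over the full 300-base window Rpl10 and Rpl39 had 17 CpG each, Rpl39l had 17 as well, and Rpl10l had 13. Rpl32l had 3 CpG, and the windows of Rpl3l had 2 and 3. The median was 21 over the 70 ribosomal protein windows and 13 over all protein-coding windows. With the start in a peak the medians were 21 and 22. Windows with a peak centre within 500 bp of their start ranged from 8 to 35 CpG. Thus Rpl32l and Rpl3l were below that range, and Rpl39l and Rpl10l, which had no peak either, were within it. The GC content had a median of 57.0% in the family and 56.3% in all windows, and with the start in a peak 56.7% and 61.7%.

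Processed copies gave a further contrast. Of 303 annotated pseudogenes with an Rpl or Rps symbol and -ps, 10 (3.30%, 1.80 to 5.97%) had a peak centre within 1000 bp of an end, and 3 of these peaks joined at least 4 subpeaks. Peak centres lay inside 2 of the 303. The pseudogenes had a median length of 526 bp. Reads from near-identical copies may be dropped or misplaced by the aligner, in gene bodies of the family as well as in pseudogenes, and how multi-mapping reads were handled was not stated.

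Of the 145 assigned peaks 77 (53.1%, 45.0 to 61.0%) lay within 1000 bp of a gene end, against 21.5% of all merged peaks. Gene length was not matched in this comparison. Over peaks of all genes no longer than the longest member it was 40.9%, and for mitochondrial ribosomal protein genes, with a median length of 7690.5 bp, 46.8%. Another 62 peaks (42.8%) lay outside genes and 6 (4.14%) inside a member away from its ends. Of these 6, the peaks in Rpl19 (365 bp, 8 subpeaks), Rpl22 (263 bp, 4) and Rps2 covered an annotated start that lies within the gene interval. The median was 1 assigned peak per gene. Rpl14, Rpl34, Rpl38 and Rps29 had 7 each, Rpl21 and Rps14 had 5, and 9 genes had none.

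A smaller share of the family's peaks than of all merged peaks had at most 3 subpeaks. At most 3 subpeaks were found in 32 of 145 peaks (22.1%, 16.1 to 29.5%), against 42.3% of all. At gene ends the share was 11.7% (9 of 77), against 26.2%, and away from them 33.8% (23 of 68), against 46.7%. The corresponding shares at gene ends were 9.09% for mitochondrial ribosomal protein, 4.76% for proteasome and 12.2% for translation factor genes. Over all their peaks the shares were 27.7%, 21.6% and 38.9%. The median was 4 subpeaks in each set at gene ends, and 6 of the 77 peaks had only 1.

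**Figure D5:**
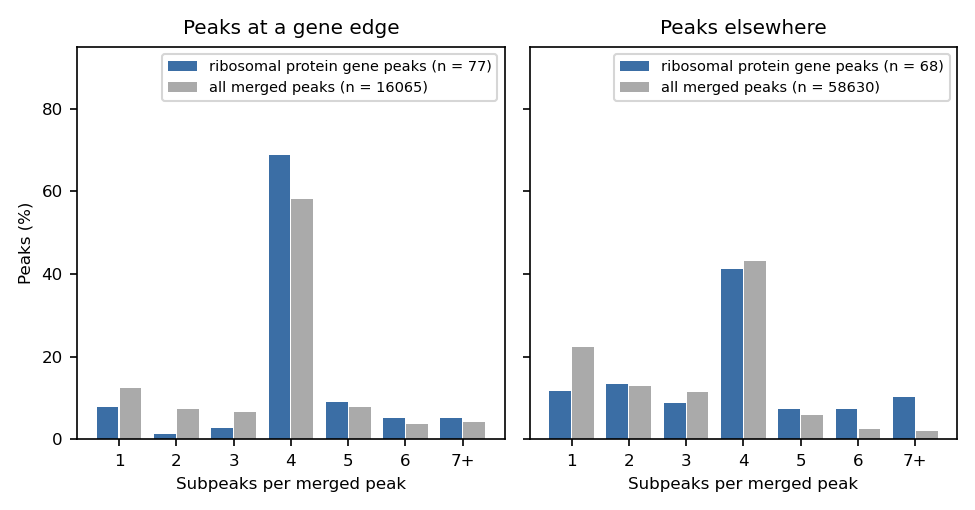
Percent of peaks (vertical axis) by number of subpeaks (horizontal axis), for peaks at gene edges (left) and elsewhere (right), with ribosomal protein gene peaks in blue and all merged peaks in grey. At gene edges 68.8% of the ribosomal protein peaks and 58.2% of all peaks have exactly 4 subpeaks.

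Width differed by place. At gene ends the median was 227 bp in the family (quartiles 208 and 278 bp) and 231 bp over all such peaks (208 and 290 bp). Away from gene ends the family's 68 peaks, at 30 genes, had a median of 308 bp (quartiles 223 and 381 bp), against 237 bp over all (204 and 298 bp). The mitochondrial ribosomal protein, proteasome and translation factor peaks away from gene ends had medians of 236, 234 and 234 bp. The 95% order-statistic interval of the family's median, over peaks, was 269 to 338 bp. It takes the 68 peaks as independent, although they came from 30 genes and several lay near the same gene. Of the 68 peaks, 17 (25%) joined more than 4 subpeaks, against 10.1% of all peaks away from gene ends. The widest were 3053.5 bp from Rpl12 (chr2:32966722-32967475, 754 bp, 8 subpeaks), 5574 bp from Rpl13 (chr8:123110513-123111123, 611 bp, 7) and 3407.5 bp from Rps13 (chr7:116327820-116328379, 560 bp, 7). Such peaks were assigned by distance alone, with a median of 11101 bp for those outside genes, and need not act on the ribosomal protein gene. Without Rpl14, Rpl34, Rpl38 and Rps29, which held 23 of them, the median was 319 bp. The comparison by place, and this check, were chosen after the widths were seen.

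No peak of the family stood in either of the authors' differential lists, whose names tie them to DESeq2 and to the YSM or MDM group. The YSM list took 1.48% of all merged peaks and the MDM list 0.145%. At these shares 145 peaks would hold 2.14 YSM-listed and 0.210 MDM-listed peaks. A count of 0 of 145 allows a share of up to 2.07%, so the absence of listed peaks was not distinguishable from the background at this number of peaks. The 141 mitochondrial ribosomal protein, 111 proteasome and 211 translation factor peaks also held 0 peaks of either list. At gene ends in general, 0.766% of merged peaks were YSM-listed and 0.0311% MDM-listed. No size of change can be given for any member, because the lists give none.

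Listed peaks of other genes lay near some members. The nearest listed peak was within 100 kb of 7 of the 77 genes (9.09%) and of 10.3% of all protein-coding genes. The lists differed in length, at 1104 YSM and 108 MDM intervals, so most listed peaks anywhere are YSM-listed. All 7 peaks near these members were in the YSM list, which at such lengths does not set the family apart. They were 18034.5 bp from Rpl39l, 26586 bp from Rps10, 41721 bp from Rpl7a, 45160 bp from Rpl24, 62128.5 bp from Rps7, 85148 bp from Rpl22 and 98558.5 bp from Rpl21. The median distance to a listed peak was 788762 bp for the family and 921700 bp for all protein-coding genes.

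As a check of the cell label, 7 of 9 macrophage markers had a gene-edge peak, beside 56.7% of all protein-coding genes, among them Spi1, Cx3cr1, Itgam and Mertk. Csf1r and Aif1 had 3 assigned peaks each but none at an end. Of 12 markers of other cell types 3 did. They were the myelin genes Mbp (394 bp, 4 subpeaks) and Mog (285 bp, 4), and Pecam1 (201 bp, 1). The peaks at Mbp and Mog had as many subpeaks as those at Spi1 and Cx3cr1. Of the 45 peaks assigned to these 12 genes 2 were YSM-listed, and of the 64 of the macrophage markers 0. The YSM list took 1.48% of all merged peaks, and counts this small do not set the 2 marker groups apart. Gfap, Aqp4, Cldn5, Cd3e, Ly6g, S100a8, Rbfox3 and Syt1 were among the markers of other cell types without a gene-edge peak.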

How the data were processed

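Chromatin accessibility was measured in 4 libraries (MDM and YSM, 2 each). The submitters' processing notes name mm10 and the tools HOMER, Picard, Trimmomatic 0.39 and Bowtie2 2.2.5. Per the file headers, mergePeaks of HOMER joined peaks called in each library. How peaks were called and whether reads were shifted for Tn5 was not stated. The deposited files hold intervals, a name that ends in the subpeak number, and a score column whose meaning is not stated and which was not used. All 15127 intervals with 1 subpeak were 201 bp wide and 0 were wider than 201 bp per subpeak. Every listed interval matched a merged one exactly.

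Coordinates were made 1-based. Gene positions and 300-base promoter windows came from RefSeq tables of GRCm38.p6. Gene intervals had no strand, so either gene end was used, and starts came from the promoter table, which lacked 19 members. Gene-edge peaks had a centre at most 1000 bp from an end of a protein-coding gene. The counts of genes with a gene-edge peak used position alone, not assignment. The assignment was tested on simulated intervals with genes set far apart. That test did not cover crowded or overlapping gene ends. Shares carry 95% Wilson intervals (SciPy 1.17.1), and 3 counts set the limit for a count of 0. Intervals over peaks take neighbouring peaks of the same gene as independent. No test was run: peaks and genes are not replicates. The members, lists and rules were chosen with earlier results of these data known, and the motifs, pyrimidine-run measure, CpG counts, 500 bp start window and length limit after these values or sequences had been seen.

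Genes named were those without a gene-edge peak, the 8 with the widest and the 8 with the most composite gene-edge peak, the 5 with most peaks, and examples of each role group; some of these are not reported here. A few others were named after their values were seen: the genes behind counts, such as shared ends and the nearest listed peaks, the genes whose sequence is shown, and the extremes of a range. Alternatives were other edge and assignment distances, genes of every kind, a wider family and peaks of at least 4 subpeaks.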

Additional observations from a re-analysis of the deposited data

How the results depend on the processing

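Under the alternatives, shares and medians were compared with the 95% interval of the first value, and counts with 1.5 times the first count. By this, 40 values stayed and 5 moved. Some of the 40 could not have moved. Counts of 0 listed peaks had to stay 0 where a setting kept only part of the 145 peaks. The gene-edge count, 71 of 77 genes, could not rise to 1.5 times itself. The tally is therefore not a measure of robustness. The gene-edge share of peaks, 53.1%, was 68.8% with assignment up to 10000 bp and 72.8% with the nearest gene of every annotated kind. The share with at most 3 subpeaks, 22.1%, was 14.3% and 15.5% under the same settings, which left 112 and 103 of the 145 peaks. With the wider family plus Rps3a1 and Rpl37rt, an alternative chosen after seeing the data, 1 YSM-listed peak was counted, at Rpl37rt, in place of 0. The number of genes with a gene-edge peak ran from 68 at 500 bp to 74 at 2000 bp. No paired analysis was possible because the files give no value per library, and leaving out each library was not run for the same reason. The depth of the libraries, and with it the peaks that could have been called, is unknown.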

Other observations

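Ribosomal protein genes whose symbols the pattern leaves out had gene-edge peaks as well. Rplp0, Rplp1 and Rplp2, which form the stalk that binds translation factors, had peaks of 208, 208 and 275 bp with 4, 4 and 5 subpeaks. Rpsa (205 bp) and Fau (296 bp) had 4 subpeaks each. Rack1, the scaffold on the small subunit, had the most composite of this group, with 9 subpeaks in 481 bp (chr11:48800035-48800515). The paralogues Rpl7l1, Rpl22l1 and Rpl36al had 4 subpeaks each. Of the 11 genes of this list 10 had a gene-edge peak, and Rps27rt had none and no assigned peak. Rps3a1, the small-subunit gene that the pattern also misses, had a peak of 278 bp with 4 subpeaks over its higher end.

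The 1 peak assigned to Rpl37rt, chr5:115101146-115101537 (392 bp, 6 subpeaks), was in the YSM list. It lay 1580.5 bp from the gene, and Rpl37rt was looked at only because its symbol fell outside the pattern.

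Small nucleolar RNA genes were annotated within 27 of the 77 members (35.1%), and within 1.70% of all protein-coding genes. Introns of ribosomal protein genes are known hosts of these RNAs, which guide modification of ribosomal RNA.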
